A study of Homo sapiens with 9 samples.

Results

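The 39 genes described here carry the answers of a cell to unfolded protein and to amino acid shortage, the unfolded protein response and the integrated stress response. They were taken by gene symbol and known function, with earlier results of these data already known. The integrated stress response arm holds 19 genes, which are ATF4, its partner factors and its targets in amino acid supply and stress feedback. The arm of the endoplasmic reticulum (ER) holds 20 genes, which are sensors, chaperones and degradation genes of ATF6 and XBP1. All 39 were found among the 22295 entries of the expression table, and all 39 were among the 15551 entries with a mean of at least 0.1 FPKM (fragments per kilobase of transcript, scaled by the mapped fragments of the library) that were tested.

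The cells were U251, an established human glioblastoma line, infected with a lentivirus that carried an sh-RNA. The group sh-Luci-3d received the control sh-RNA against luciferase and was taken at 3 dpi (days post-infection). The groups sh-Ptbp1-3d and sh-Ptbp1-7d received an sh-RNA against PTBP1, an RNA-binding protein that regulates splicing, and were taken at 3 dpi and 7 dpi. Each group had 3 RNA-seq libraries. Cells were moved at 2 dpi to a neuronal induction medium of DMEM/F12 and neurobasal medium with N2, B27, forskolin and dorsomorphin, so the 7 dpi cells had been in it for longer. No sh-Luci group of 7 dpi was among the 9 libraries of the study. In every comparison with sh-Ptbp1-7d the knockdown and the additional days in this medium cannot be told apart. The sources used here do not state whether the libraries of a group came from separate cultures, so the p-values measure the spread between these libraries, which may be technical.

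The ER folds proteins that are to be secreted or inserted into membranes. When unfolded protein accumulates there, 3 sensors in its membrane respond. ATF6 is cut and its released part becomes a transcription factor, IRE1 (encoded by ERN1) splices the mRNA of XBP1 so that the active factor is made, and PERK (encoded by EIF2AK3) phosphorylates the initiation factor eIF2α. ATF6 and XBP1 raise transcription of chaperones and of the degradation machinery. Phosphorylated eIF2α lowers protein synthesis in general but lets ATF4 be translated, and kinases other than PERK reach the same point under amino acid shortage, haem shortage or double-stranded RNA, which is why this branch is called integrated. ATF4 in turn raises transcription of amino acid transporters, of enzymes of serine and asparagine synthesis, and of DDIT3 (CHOP), TRIB3 and CHAC1, which act in feedback and cell death. Glioma cells use these routes to tolerate shortage of nutrients. Cleavage, splicing and phosphorylation are not seen in a level of a gene, and the values below are mRNA levels only.

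The targeted gene was lower in both knockdown groups. PTBP1 was at 111, 112 and 124 FPKM in sh-Luci-3d, at 66.2, 64.4 and 61.0 in sh-Ptbp1-3d, and at 49.8, 50.7 and 51.0 in sh-Ptbp1-7d. The sum of 8 glioma markers was 4459 to 4586 FPKM, then 4583 to 4879 and, at 7 dpi, 1387 to 1510. It was mostly VIM, with means of 4168, 4381 and 1169 FPKM in the same order of groups. CD44 was also lowest at 7 dpi (182, 166 and 62.3 FPKM), while SOX2 was highest there (106, 124 and 145 FPKM) and NES and SOX9 varied less. The astroglial markers GFAP and S100B were at most 1.15 and 0.933 FPKM in any library. The sum of 6 neuronal markers was 265 to 316, 335 to 356 and 158 to 165 FPKM. It was mostly TUBB3 (261, 317 and 118 FPKM), while MAP2 (22.4, 20.3 and 38.9 FPKM) and SNAP25 (1.27, 2.68 and 4.32 FPKM) were highest at 7 dpi. Of the blood and immune markers, CD3E was at 0 in all 9 libraries and PTPRC was at most 0.0903 FPKM. The neuronal gene STMN2 was at 11.5 FPKM in sh-Ptbp1-3d replicate 3 and at 0 in the other 8 libraries. DCX, also a neuronal marker, was at 2.145 FPKM in that same library and at most 0.0346 FPKM in the other 8. sh-Luci-3d replicate 3 stood apart from the other libraries of its group, with a median absolute log2 gap to them of 0.28 over all genes tested and 0.26 over the 39 genes, where the other 8 libraries had gaps of 0.11 to 0.18 and 0.061 to 0.16. The FPKM of a library summed to 367412 to 404922, the share of mitochondrially encoded genes in this sum was 8.68% to 13.3% in the 3 dpi libraries and 6.10% to 8.53% in sh-Ptbp1-7d, and the number of reads behind the values is unknown. Since the samples are bulk RNA, fewer cells that express a gene and less of its RNA per cell cannot be told apart. The part of these shifts in the results below was not tested.

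**Figure D1:**
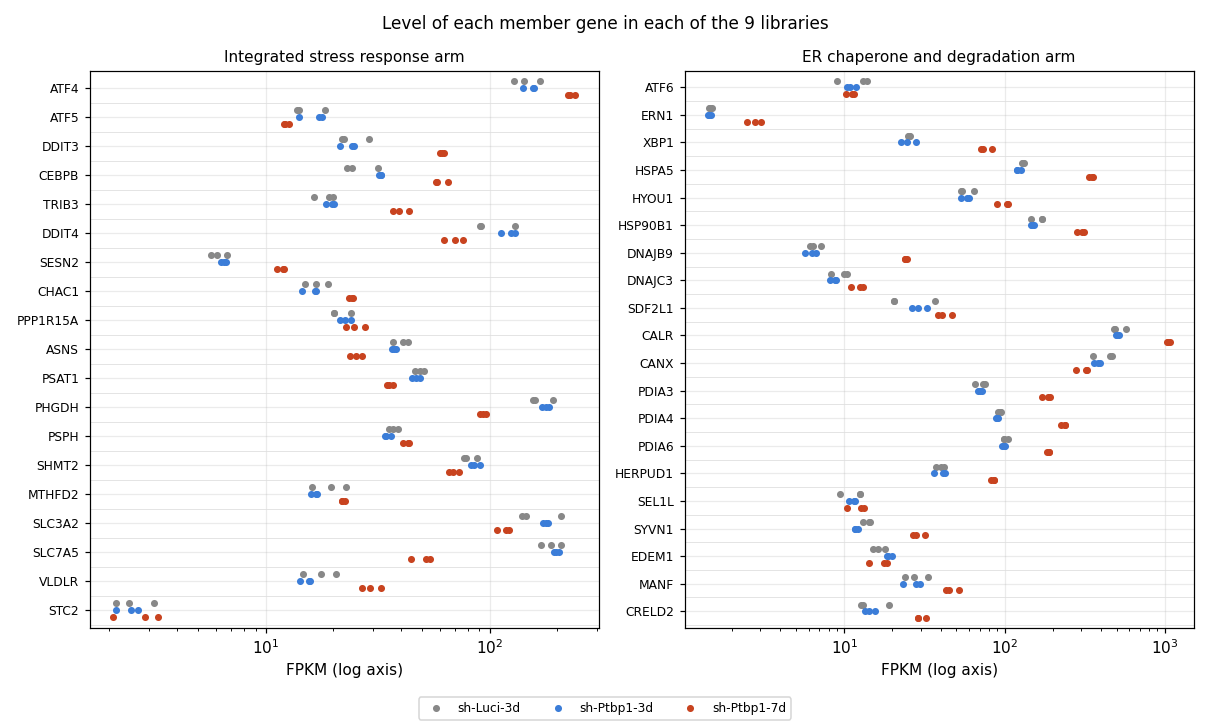
Level of each of the 39 genes in each of the 9 libraries, in FPKM on a log axis, with the integrated stress response arm on the left and the ER arm on the right and 1 point per library coloured by group. The 3 dpi groups lie on each other for most genes, while sh-Ptbp1-7d lies to the right for most ER genes, such as HSPA5 at 339 to 357 FPKM, and to either side in the other arm, such as SLC7A5 at 44.5 to 54.1 FPKM.

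The first comparison asked whether either arm had moved at 3 dpi, when the knockdown was already present. It had not by the test used. Of the 39 genes, 0 passed limma with a Benjamini-Hochberg adjusted p below 0.05, against 0.0322% of all genes tested (5 of 15551). At an unadjusted p below 0.05 there were 2 of the 39, beside 1126 of the 15551. These were CEBPB, a factor of the C/EBP family that pairs with ATF4, at a log2 fold change of 0.32 with a standard error of 0.11 (limma adjusted p = 0.611), and SYVN1, the ubiquitin ligase of ER degradation, with -0.24 (standard error 0.088, limma adjusted p = 0.619). The log2 fold changes of the 39 genes lay between -0.24 and 0.32. Their median was 0.076 in the integrated stress response arm and -0.036 in the ER arm, and 0.010 over all genes tested.

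For 5 of the 39 genes the 3 values of one group all exceeded the 3 of the other. This share was near the 10.8% of all genes tested (1678 of 15551). CEBPB and EDEM1 were higher in all 3 sh-Ptbp1-3d libraries, and HSPA5, PDIA4 and SYVN1 were lower in all 3. The differences were small, as HSPA5, the ER Hsp70 known as BiP, shows at 130, 133 and 128 FPKM in the sh-Luci-3d libraries against 120, 127 and 119 FPKM at 3 dpi of the knockdown. This comparison depended on sh-Luci-3d replicate 3. Without that library 993 of 15582 genes tested passed, and 78.8% of these calls were higher in sh-Ptbp1-3d (782 higher and 211 lower). Of the 39 genes 5 passed, of which CEBPB, DDIT4, SLC3A2 and SDF2L1 were higher and MTHFD2 was lower.

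The second comparison followed the knockdown cells from 3 dpi to 7 dpi, with an adjusted p below 0.01 as the threshold. In it 23 of the 39 genes were higher at 7 dpi, 7 were lower and 9 did not pass. Of all genes tested, 20.3% were higher and 15.5% lower by the same rule (3152 and 2418 genes), a balance that turned over with median-ratio scaling (2689 and 2897) and quantile normalization (2674 and 2903). With a fold change above 2 required as well, 12 of the 39 genes were higher and 1 was lower, against 8.31% and 5.90% of all genes tested. Over the 20 alternatives these counts were 7 to 15 and 1 to 2. The lowest count of rises came with median-ratio scaling, where TRIB3, HSP90B1, CALR, HERPUD1 and CRELD2 were below a fold change of 2 and PHGDH fell past it. The arms differed in their makeup. In the ER arm 15 of 20 genes were higher, 0 were lower and 5 did not pass, with a median log2 fold change of 0.97. The integrated stress response arm was divided, with 8 of 19 genes higher, 7 lower and 4 that did not pass, and its median was 0.15, where that of all genes tested was 0.092. By log2 fold change the ER genes ranged from -0.30 to 1.94 and those of the other arm from -1.98 to 1.38.

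**Figure D2:**
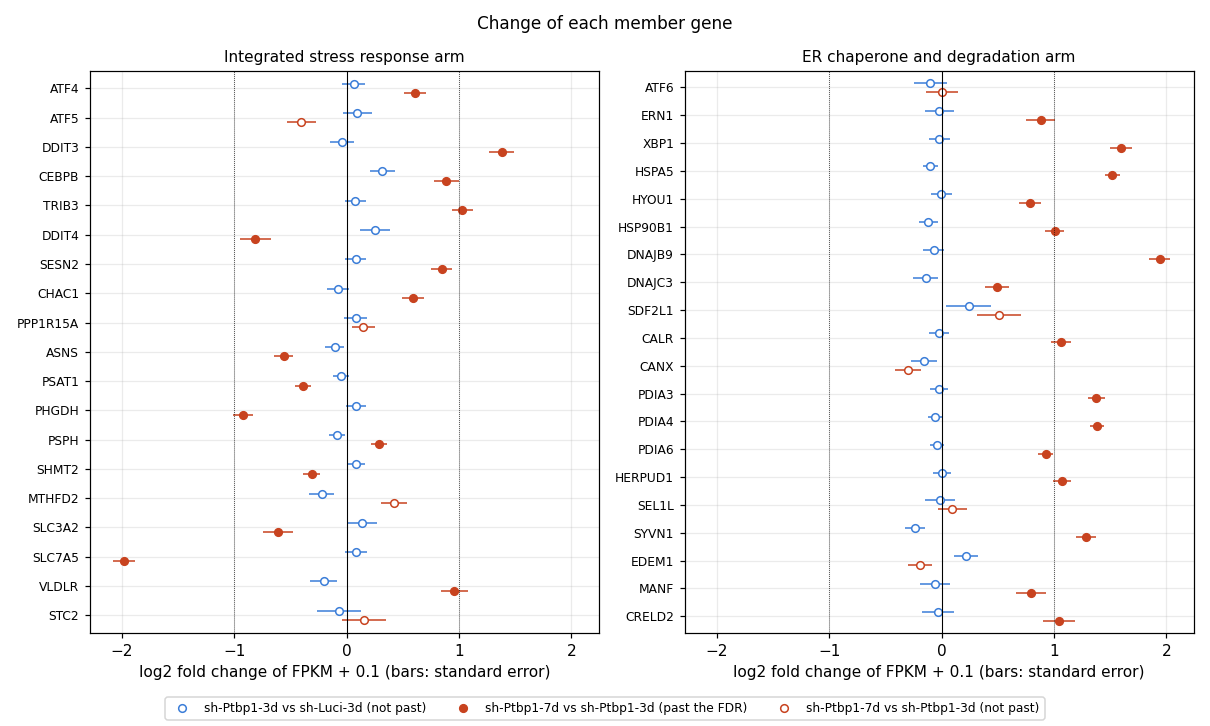
log2 fold change of each gene on the log2(FPKM + 0.1) scale with its standard error, with the 3 dpi comparison of knockdown and control in blue and the step of the knockdown cells from 3 dpi to 7 dpi in red, with filled points for genes past the adjusted p threshold and dotted lines at a fold change of 2. All blue points are open and near 0, and the red points of the ER arm lie at or right of 0 except CANX and EDEM1, while those of the other arm lie on both sides.

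Within the integrated stress response arm, 3 of the 4 transcription factors rose. ATF4, the central factor of the arm, was at 128, 143 and 168 FPKM in sh-Luci-3d, at 158, 141 and 157 FPKM in sh-Ptbp1-3d and at 224, 229 and 242 FPKM in sh-Ptbp1-7d. Its 3 dpi libraries overlapped and each lay below each 7 dpi library, with a 1.52-fold higher mean at 7 dpi than in sh-Ptbp1-3d (log2 fold change 0.61, standard error 0.10, limma adjusted p = 0.000516). DDIT3 encodes CHOP, a C/EBP-family factor that ATF4 induces and that promotes cell death under lasting stress. It was at 21.8, 22.3 and 28.9 FPKM in sh-Luci-3d, at 24.3, 24.8 and 21.4 FPKM in sh-Ptbp1-3d and at 59.9, 62.3 and 61.3 FPKM in sh-Ptbp1-7d. The 7 dpi libraries were close to each other and far above the rest, 2.60-fold above sh-Ptbp1-3d (log2 fold change 1.38, standard error 0.11, limma adjusted p = 2.78e-06).

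CEBPB was at 24.3, 23.1 and 31.6 FPKM in sh-Luci-3d, at 32.7, 31.9 and 32.9 FPKM in sh-Ptbp1-3d and at 57.9, 57.6 and 65.0 FPKM in sh-Ptbp1-7d. Its 3 groups followed each other without overlap, and the step from 3 dpi to 7 dpi was 1.85-fold (log2 fold change 0.89, standard error 0.11, limma adjusted p = 8.13e-05). ATF5, a factor related to ATF4 that also acts on mitochondrial stress, did not pass, with a mean of 16.4 ± 2.07 FPKM at 3 dpi of the knockdown and 12.3 ± 0.371 FPKM at 7 dpi (SD, n = 3 each; limma adjusted p = 0.0217).

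Of the 5 feedback and effector genes, 3 rose, 1 fell and 1 did not pass. TRIB3, a pseudokinase that restrains ATF4 and AKT, was at 16.5, 19.2 and 19.9 FPKM in sh-Luci-3d, at 20.2, 19.7 and 18.5 FPKM in sh-Ptbp1-3d and at 39.2, 37.1 and 43.4 FPKM in sh-Ptbp1-7d. The 3 dpi groups lay on each other, and the 7 dpi mean was 2.05-fold above sh-Ptbp1-3d (log2 fold change 1.03, standard error 0.095, limma adjusted p = 8.45e-06). SESN2, a sestrin that limits mTORC1 when leucine is short, rose 1.81-fold from 6.49 ± 0.169 to 11.8 ± 0.465 FPKM (SD, n = 3 each). CHAC1, which degrades glutathione, rose 1.504-fold from 15.96 ± 1.27 to 24.0 ± 0.498 FPKM (SD, n = 3 each). DDIT4 (REDD1), another inhibitor of mTORC1, went the other way, from 122 ± 9.16 to 69.5 ± 6.64 FPKM (SD, n = 3 each; log2 fold change -0.81, limma adjusted p = 0.000603). PPP1R15A (GADD34), which returns eIF2α to its unphosphorylated state, was at 22.7 ± 1.28 and 25.1 ± 2.48 FPKM (SD, n = 3 each) and did not pass (limma adjusted p = 0.258). Thus SESN2 and DDIT4, which act on the same kinase complex, changed in opposite directions.

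The enzymes and the transporter subunits of amino acid supply in this arm are first counted together, as a description. Of these 8 genes 6 fell, 1 rose and 1 did not pass, beside 15.5% lower and 20.3% higher among all genes tested. Among the 6 enzymes 4 fell, 1 rose and 1 did not pass. PHGDH, the first enzyme of serine synthesis, fell to 52.6% of its sh-Ptbp1-3d mean, from 178 ± 6.44 to 93.5 ± 2.99 FPKM (SD, n = 3 each; log2 fold change -0.93, standard error 0.088, limma adjusted p = 1.00e-05). PSAT1, the next enzyme of that pathway, fell to 76.3% (47.0 ± 2.0 to 35.9 ± 1.18 FPKM), and the last, PSPH, rose 1.22-fold (34.8 ± 1.32 to 42.6 ± 1.35 FPKM; SD, n = 3 each). The 3 enzymes of serine synthesis therefore did not move in 1 direction. ASNS, which makes asparagine, fell to 67.7% (37.4 ± 0.847 to 25.3 ± 1.60 FPKM; SD, n = 3 each; log2 fold change -0.56, limma adjusted p = 0.000246). The mitochondrial folate enzymes were SHMT2, which fell to 80.5% (86.1 ± 3.99 to 69.3 ± 3.51 FPKM; SD, n = 3 each), and MTHFD2, which was at 16.5 ± 0.493 and 22.1 ± 0.366 FPKM (SD, n = 3 each) with an adjusted p just above the threshold (limma adjusted p = 0.0106). The calls of PSPH and SHMT2 (limma adjusted p = 0.00626 and 0.00693) were lost when any one of the 6 knockdown libraries was left out, with adjusted p over all alternatives up to 0.0458 and 0.0361. They held in 12 and 9 of the 20 alternatives. Both were also lost without the intensity trend, and PSPH with median-ratio scaling. SHMT2 was also lost with TPM, with quantile normalization, under the replicate block and without a filter on low values. MTHFD2 passed in 6 of the 20 alternatives, with adjusted p over all alternatives down to 0.000441. These were the omission of sh-Luci-3d replicate 1 or 3, TPM, and a filter at a mean of 1 FPKM. The others were the omission of mitochondrial genes and assembled loci, and the fit of the 2 groups alone.

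Both subunits of the LAT1 amino acid transporter fell. SLC7A5, the subunit that carries leucine and other large neutral amino acids, was at 169, 187 and 207 FPKM in sh-Luci-3d, at 204, 197 and 194 FPKM in sh-Ptbp1-3d and at 54.1, 51.9 and 44.5 FPKM in sh-Ptbp1-7d. The 7 dpi libraries lay far below the 6 others, at 25.3% of the sh-Ptbp1-3d mean (log2 fold change -1.98, standard error 0.096, limma adjusted p = 8.50e-08), and this was the only one of the 39 genes that fell by more than 2-fold in either comparison with sh-Ptbp1-7d, apart from PHGDH under median-ratio scaling. SLC3A2, the heavy chain that brings SLC7A5 to the cell surface, fell to 65.3% (178 ± 5.09 to 116 ± 7.42 FPKM; SD, n = 3 each; log2 fold change -0.62, limma adjusted p = 0.00299). This call held in 15 of the 20 alternatives (adjusted p over all alternatives up to 0.0198). It was lost without sh-Ptbp1-3d replicate 1 or 2 or sh-Ptbp1-7d replicate 2, without a filter on low values and without the intensity trend. Of the remaining pair, VLDLR, a lipoprotein receptor induced by ATF4, rose 1.95-fold (15.2 ± 0.812 to 29.6 ± 2.89 FPKM; SD, n = 3 each; limma adjusted p = 8.23e-05). The secreted glycoprotein STC2 was low, at 2.44 ± 0.275 and 2.76 ± 0.628 FPKM (SD, n = 3 each), and did not pass (limma adjusted p = 0.544).

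In the ER arm, 2 of the 3 upstream genes rose. ERN1, the IRE1 sensor, had the lowest level of the 39 genes at 3 dpi. It was at 1.461, 1.496 and 1.442 FPKM in sh-Luci-3d, at 1.479, 1.412 and 1.443 FPKM in sh-Ptbp1-3d and at 2.76, 3.02 and 2.49 FPKM in sh-Ptbp1-7d, a 1.91-fold rise from sh-Ptbp1-3d (log2 fold change 0.88, standard error 0.13, limma adjusted p = 0.000254). XBP1, whose mRNA is the substrate of IRE1, was at 25.2, 25.4 and 25.6 FPKM in sh-Luci-3d, at 28.0, 24.7 and 22.5 FPKM in sh-Ptbp1-3d and at 70.9, 83.5 and 73.6 FPKM in sh-Ptbp1-7d. All 7 dpi libraries of XBP1 exceeded all 3 dpi libraries, with a 3.03-fold higher mean than in sh-Ptbp1-3d (log2 fold change 1.60, standard error 0.094, limma adjusted p = 3.37e-07). These values add up spliced and unspliced XBP1 mRNA.

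ATF6, by contrast, was at 13.1, 13.8 and 9.07 FPKM in sh-Luci-3d, at 10.8, 11.8 and 10.4 FPKM in sh-Ptbp1-3d and at 11.2, 11.6 and 10.3 FPKM in sh-Ptbp1-7d. The 3 groups overlapped, and the log2 fold change from 3 dpi to 7 dpi was 0.0016 (standard error 0.14, limma adjusted p = 0.994). Over all alternatives that value lay between -0.094 and 0.10 and did not pass in any. The ATF6 protein is regulated by cleavage, which these data do not show.

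Of the 6 luminal chaperones and co-chaperones 5 rose, and 3 of these by more than 2-fold. HSPA5 reached 339, 357 and 353 FPKM in sh-Ptbp1-7d, 2.87-fold above the sh-Ptbp1-3d libraries given above (log2 fold change 1.52, standard error 0.067, limma adjusted p = 4.50e-08). The 7 dpi libraries lay in a narrow band far above the 6 others. HSP90B1 (GRP94), the ER member of the Hsp90 family, was at 170, 172 and 146 FPKM in sh-Luci-3d, at 147, 154 and 148 FPKM in sh-Ptbp1-3d and at 283, 313 and 304 FPKM in sh-Ptbp1-7d. Its rise from sh-Ptbp1-3d was 2.01-fold (log2 fold change 1.01, standard error 0.084, limma adjusted p = 3.94e-06), just past the fold threshold. DNAJB9 (ERdj4), a J-domain protein that guides HSPA5 to misfolded clients and to IRE1, was at 6.13, 7.12 and 6.36 FPKM in sh-Luci-3d, at 5.71, 6.67 and 6.29 FPKM in sh-Ptbp1-3d and at 24.5, 23.9 and 24.1 FPKM in sh-Ptbp1-7d. This was the largest rise of the 39 genes from 3 dpi to 7 dpi of the knockdown, at 1.94 (standard error 0.093, limma adjusted p = 7.86e-08), a 3.88-fold difference.

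The other co-chaperones moved less. HYOU1, a large Hsp70 relative that exchanges nucleotide on HSPA5, rose 1.73-fold (57.4 ± 3.16 to 99.2 ± 8.49 FPKM; SD, n = 3 each). DNAJC3 (p58IPK), which also inhibits PERK, rose 1.42-fold (8.61 ± 0.438 to 12.2 ± 1.07 FPKM; SD, n = 3 each), but its call (limma adjusted p = 0.00353) was lost when any one of the 3 sh-Ptbp1-3d libraries or sh-Ptbp1-7d replicate 1 or 2 was left out (adjusted p over all alternatives up to 0.0193). The call of DNAJC3 was also lost without a filter on low values, and held in 14 of the 20 alternatives. SDF2L1, which works with DNAJB11, was at 29.5 ± 3.23 and 42.1 ± 4.65 FPKM (SD, n = 3 each) and did not pass (limma adjusted p = 0.0529). It passed without sh-Luci-3d replicate 3, as did CANX, described next, and ATF5, with adjusted p over all alternatives down to 0.00144, 0.00577 and 0.00414. SDF2L1 and ATF5 also passed in the fit of the 2 groups alone.

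The lectin chaperones CALR and CANX, which hold glycoproteins during folding, parted. CALR, the soluble one, had the highest level of the 39 genes, with 489, 482 and 575 FPKM in sh-Luci-3d, then 518, 500 and 496 FPKM in sh-Ptbp1-3d, and at 7 dpi 1083, 1053 and 1033 FPKM. Its 7 dpi libraries were all above its 3 dpi libraries, 2.09-fold above sh-Ptbp1-3d (log2 fold change 1.07, standard error 0.087, limma adjusted p = 3.60e-06). CANX, the one anchored in the membrane, was at 456, 467 and 354 FPKM in sh-Luci-3d, at 385, 392 and 363 FPKM in sh-Ptbp1-3d and at 322, 327 and 278 FPKM in sh-Ptbp1-7d. Each 7 dpi library of CANX was below each 3 dpi library, and the difference from sh-Ptbp1-3d did not pass (log2 fold change -0.30, standard error 0.11, limma adjusted p = 0.0485). Under quantile normalization this log2 fold change became 0.18.

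The 3 protein disulfide isomerases, which form and reshuffle disulfide bonds, all rose. PDIA3 (ERp57), the partner of CALR and CANX, was at 73.7, 75.2 and 65.7 FPKM in sh-Luci-3d, at 70.8, 72.0 and 68.5 FPKM in sh-Ptbp1-3d and at 171, 187 and 193 FPKM in sh-Ptbp1-7d, a 2.60-fold rise from sh-Ptbp1-3d (log2 fold change 1.38, standard error 0.079, limma adjusted p = 2.76e-07). PDIA4 (ERp72) was at 94.6, 91.0 and 94.1 FPKM, at 89.5, 90.6 and 88.0 FPKM and at 225, 238 and 237 FPKM in the same order of groups. Its rise was 2.61-fold (log2 fold change 1.38, standard error 0.064, limma adjusted p = 6.34e-08), so that PDIA3 and PDIA4 rose by nearly the same factor from different levels. PDIA6, which also acts on IRE1, rose 1.90-fold (98.6 ± 1.88 to 187 ± 3.73 FPKM; SD, n = 3 each; log2 fold change 0.93).

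Among the 4 genes of ER-associated degradation, which sends misfolded proteins to the proteasome, 2 rose by more than 2-fold and 2 did not pass. HERPUD1, a membrane organiser of the degradation complex, was at 37.5, 42.2 and 40.3 FPKM in sh-Luci-3d, at 41.3, 42.8 and 36.5 FPKM in sh-Ptbp1-3d and at 81.8, 85.7 and 85.5 FPKM in sh-Ptbp1-7d (2.10-fold over sh-Ptbp1-3d, log2 fold change 1.07, standard error 0.082, limma adjusted p = 2.12e-06). SYVN1 (HRD1), the ubiquitin ligase, was at 14.5, 13.0 and 14.4 FPKM in sh-Luci-3d, at 12.3, 11.6 and 11.6 FPKM in sh-Ptbp1-3d and at 27.0, 28.0 and 31.9 FPKM in sh-Ptbp1-7d (2.45-fold over sh-Ptbp1-3d, log2 fold change 1.28, standard error 0.088, limma adjusted p = 9.51e-07). Both genes had 7 dpi libraries above all 6 others. SEL1L, the adaptor that holds SYVN1 in its complex, was at 11.3 ± 0.459 and 12.1 ± 1.47 FPKM (SD, n = 3 each; log2 fold change 0.096, standard error 0.13, limma adjusted p = 0.569). EDEM1, which trims mannose from glycoproteins bound for degradation, was at 19.1 ± 0.770 and 16.8 ± 2.19 FPKM (SD, n = 3 each; log2 fold change -0.19, standard error 0.11, limma adjusted p = 0.167). The ligase and its adaptor thus stood apart, with SYVN1 past the threshold and SEL1L not, a difference between the 2 genes that was not tested.

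Of the secreted ER proteins, CRELD2 was at 12.8, 13.2 and 19.1 FPKM in sh-Luci-3d, at 15.6, 13.6 and 14.3 FPKM in sh-Ptbp1-3d and at 32.3, 28.9 and 28.8 FPKM in sh-Ptbp1-7d. Its libraries overlapped between the 3 dpi groups and lay 2.07-fold higher than sh-Ptbp1-3d at 7 dpi (log2 fold change 1.05, standard error 0.14, limma adjusted p = 0.000128). MANF, a neurotrophic factor that binds HSPA5, rose 1.74-fold (27.0 ± 3.34 to 46.8 ± 4.35 FPKM; SD, n = 3 each; log2 fold change 0.80, limma adjusted p = 0.000564).

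The promoters were read for the sequence elements known for these factors, to show what the members share beside their levels. The ER stress response element (ERSE), bound by ATF6 and XBP1 together with NF-Y, is CCAAT, 9 free bases and CCACG. Both strands of the 250 bases before each RefSeq start site (assembly GRCh38.p14) were searched. RefSeq windows were at hand for 36 of the 39 genes, 17 of the integrated stress response arm and 19 of the ER arm, and PSPH, SHMT2 and PDIA3 were not searched. An exact ERSE was found in 7 of the 19 ER genes (36.8%), in 0 of the 17 others, and in 25 of the 27305 genes with a window (0.0916%). It was known for ER chaperone promoters before these data, so the share describes how the genes were listed. The 150 bases before the start site of HSPA5 (chr9:125241344-125241493, minus strand), which overlap no annotated exon of the gene, are shown with the fixed letters of the element in capitals. The element spans positions -66 to -48 from the start site.

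HSPA5: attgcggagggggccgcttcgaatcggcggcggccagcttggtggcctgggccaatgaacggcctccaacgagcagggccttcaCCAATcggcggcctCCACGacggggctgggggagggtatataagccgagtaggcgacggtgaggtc

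The other matches are given with 5 bases on either side, read along the strand of the gene, so that a match on the opposite strand appears as CGTGG followed by ATTGG. They are shown because 5 of these 6 genes rose at 7 dpi and CANX, which carries the same element, did not. XBP1 lies at chr22:28800598-28800626 (minus strand), HSP90B1 at chr12:103930211-103930239 and chr12:103930316-103930344 (plus strand), CALR at chr19:12938379-12938407 (plus strand), CANX at chr5:179698773-179698801 (plus strand), PDIA6 at chr2:10812848-10812876 (minus strand) and CRELD2 at chr22:49918549-49918577 (plus strand).
XBP1: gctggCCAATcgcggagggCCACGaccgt
HSP90B1, first: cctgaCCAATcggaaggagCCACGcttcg
HSP90B1, other: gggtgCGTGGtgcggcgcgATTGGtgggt
CALR: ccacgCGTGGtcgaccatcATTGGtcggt
CANX: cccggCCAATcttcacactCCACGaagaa
PDIA6: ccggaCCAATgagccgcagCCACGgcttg
CRELD2: cctctCGTGGcgaactcggATTGGgccat

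Among ER genes with a window, 6 of the 14 that rose and 1 of the 5 that did not pass held an exact ERSE. DNAJB9, PDIA4, HERPUD1 and SYVN1 rose by more than 2-fold without one in this window, which says only that these letters are not there. The core of the XBP1 element, TGACGTG, was found in HYOU1 alone of the 36 genes and in 2.05% of all genes with a window (561 of 27305). The C/EBP-ATF response element of ATF4, searched as TGATGNAA, was found in CHAC1, ASNS and HERPUD1, and in 3.89% of all genes with a window (1061 of 27305). It is shown for CHAC1 (chr15:40953251-40953280, plus strand), which rose, and for ASNS (chr7:97872458-97872487, minus strand), which fell, with the fixed letters in capitals and the CHAC1 match on the opposite strand.
CHAC1: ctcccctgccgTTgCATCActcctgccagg
ASNS: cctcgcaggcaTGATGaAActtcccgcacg

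Ratios of 2 genes within a library show the divergences free of any scaling between libraries. The pairs were picked after the values were seen, so they are given as a description with no test. CALR over CANX was 1.07, 1.03 and 1.62 in sh-Luci-3d, 1.35, 1.28 and 1.37 in sh-Ptbp1-3d and 3.36, 3.22 and 3.72 in sh-Ptbp1-7d. ATF4 over SLC7A5, a factor over its target, was 0.759, 0.762 and 0.811, then 0.773, 0.719 and 0.810, and at 7 dpi 4.15, 4.41 and 5.43. DDIT3 over ASNS, which are both ATF4 targets, was 0.532, 0.515 and 0.784, then 0.651, 0.648 and 0.585, and at 7 dpi 2.53, 2.46 and 2.28. HSPA5 over ATF6 was 9.99, 9.62 and 14.2, then 11.1, 10.8 and 11.5, and at 7 dpi 30.3, 30.8 and 34.4. In these 4 pairs every 7 dpi library exceeded every 3 dpi library, and sh-Luci-3d replicate 3 was the highest of the sh-Luci-3d libraries. HSPA5 over HSP90B1, chaperones that both rose, still shifted, from 0.765 to 0.882 over the 6 libraries of 3 dpi to 1.14 to 1.20 in sh-Ptbp1-7d.

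**Figure D3:**
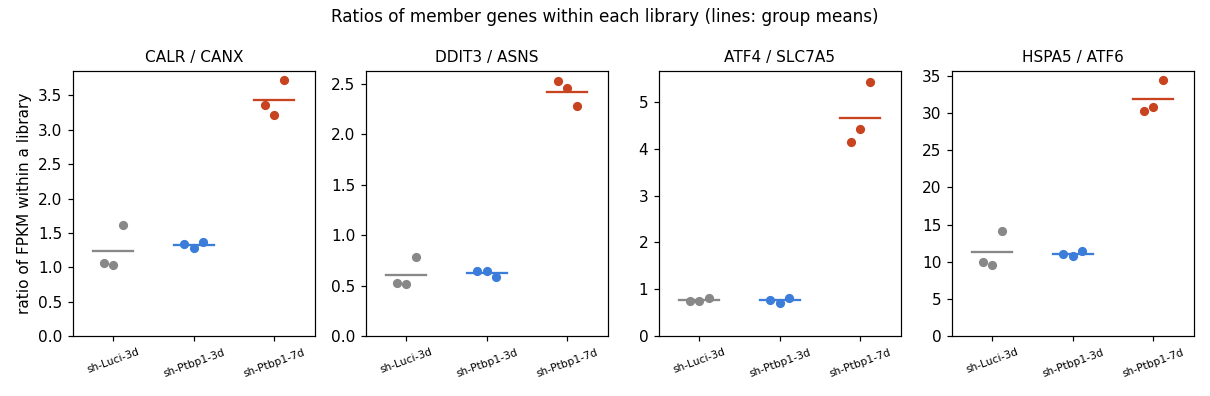
Ratio of the FPKM of 2 genes within each library, for CALR over CANX, DDIT3 over ASNS, ATF4 over SLC7A5 and HSPA5 over ATF6, with 1 point per library and a line at each group mean. The sh-Ptbp1-7d points lie above all 3 dpi points in each panel, for example at 3.22 to 3.72 against 1.03 to 1.62 for CALR over CANX.

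The same sh-Ptbp1-7d libraries were set against sh-Luci-3d, a comparison that differs in both knockdown and time. Of the 39 genes 22 were higher, 6 lower and 11 did not pass, against 20.6% higher and 15.0% lower among all genes tested. Past a fold change of 2 as well there were 12 higher and 1 lower, against 8.93% and 5.68% of all genes tested, and over the 20 alternatives these counts were 8 to 13 and 1. The lowest was with median-ratio scaling, where CALR, HERPUD1, SYVN1 and CRELD2 were below a fold change of 2. In the ER arm 15 of 20 were higher and 1, CANX, was lower, with a median log2 fold change of 0.89. CANX was at 72.6% of its sh-Luci-3d mean (log2 fold change -0.46, standard error 0.11, limma adjusted p = 0.00686), and this call was lost in 13 of 20 alternatives, among them the omission of any library except sh-Luci-3d replicate 3 (adjusted p over all alternatives 0.000236 to 0.933). SDF2L1 was 1.62-fold higher (log2 fold change 0.75, standard error 0.20, limma adjusted p = 0.00929), a call that was also lost in 13 of 20 alternatives, among them the same omissions (adjusted p over all alternatives 3.77e-05 to 0.0523). In the integrated stress response arm 7 of 19 were higher and 5 lower, with a median of 0.20, and with median-ratio scaling of the libraries 6 were higher and 7 lower. DDIT4 was among the 5 lower, and its call (limma adjusted p = 0.00593) held in 14 of 20 alternatives (adjusted p over all alternatives up to 0.0325). That call was lost without sh-Ptbp1-7d replicate 2 or 3, without a filter on low values and without the intensity trend. The fit of the 2 groups alone and the replicate block also lost it. The call of CHAC1 (limma adjusted p = 0.00164) was lost with median-ratio scaling alone (adjusted p up to 0.0111). SLC3A2 was not called (limma adjusted p = 0.0123) and passed in 4 of 20 alternatives (adjusted p over all alternatives down to 0.00429). These were median-ratio scaling, quantile normalization and the omission of sh-Luci-3d replicate 1 or 3. CEBPB passed the fold threshold here (2.29-fold, log2 fold change 1.20, standard error 0.11, limma adjusted p = 8.69e-06), and HSP90B1 did not, at 1.85-fold (log2 fold change 0.89). SLC7A5 was at 26.7% of its sh-Luci-3d mean (log2 fold change -1.90, standard error 0.096, limma adjusted p = 1.10e-07). DNAJB9 again rose the most of the 39, by 1.87 on the log2 scale (standard error 0.093, limma adjusted p = 9.97e-08). Since both comparisons use the sh-Ptbp1-7d libraries, their results are not independent.

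The wider pathways were read from 7 further lists with 119 genes, which were also chosen with earlier results of these data known. At 3 dpi, 0 genes of the 7 lists passed limma, with 0 to 3 genes per list at an unadjusted p below 0.05. From sh-Ptbp1-3d to sh-Ptbp1-7d, the shares are read beside the 20.3% higher and 15.5% lower of all genes tested. Of 20 further ER folding genes 11 rose (55.0%) and 1 fell (median log2 fold change 0.81), of 22 genes of translocation into the ER 13 rose (59.1%) and 0 fell (median 0.44), and of 19 further degradation genes 7 rose (36.8%) and 3 fell (15.8%; median 0.33). Of the list of ATF6 and CREB3 processing, 6 of 7 genes were tested, of which 1 rose and 0 fell (median 0.11).

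Past a fold change of 2 in ER folding were PPIB, a prolyl isomerase, from 259 ± 3.96 to 692 ± 18.1 FPKM (log2 fold change 1.42), and P4HB, the founding protein disulfide isomerase, from 452 ± 5.70 to 1026 ± 76.7 FPKM (log2 fold change 1.18; SD, n = 3 each). The HSPA5 co-factors SIL1 (log2 fold change 1.33) and DNAJB11 (1.07) and the thiol retention protein ERP44 (1.04) also passed it. In translocation these were SSR4 (1.32) of the translocon-associated complex, RPN1 (1.15) of the oligosaccharyl transferase and SRPRB (1.09) of the signal recognition particle receptor. No degradation gene of the list passed it.

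In the eIF2α circuit 2 of 13 genes rose and 2 fell (15.4% each, near the shares of all genes tested; median log2 fold change 0.082). The gene past a fold change of 2 was EIF2AK3, which encodes PERK, the one eIF2α kinase of the ER, from 3.40 ± 0.410 to 9.04 ± 0.714 FPKM (SD, n = 3 each; log2 fold change 1.39, standard error 0.16, limma adjusted p = 4.08e-05). Among 23 of 25 further ATF4 targets that were tested, 6 rose (26.1%) and 2 fell (8.70%; median 0.19). GDF15, a secreted stress cytokine, rose from 17.1 ± 0.951 to 85.7 ± 5.96 FPKM (SD, n = 3 each; log2 fold change 2.32, standard error 0.13, limma adjusted p = 2.15e-07), and the stress factor ATF3 from 4.71 ± 0.135 to 10.02 ± 0.617 FPKM (log2 fold change 1.07). Some genes of amino acid supply on this list also rose, and they are named here after their values were seen. GPT2, an alanine aminotransferase, rose by 0.93 on the log2 scale (limma adjusted p = 1.44e-05). SLC6A9, a glycine transporter, rose by 0.82 (limma adjusted p = 0.000149) and ALDH18A1, an enzyme of proline synthesis, by 0.29 (limma adjusted p = 0.00406). Other genes of amino acid or one-carbon supply on the list did not pass, namely CTH, CBS, ALDH1L2, PYCR1, MTHFD1L, SLC7A1, SLC1A4, SLC1A5 and SLC38A2. SLC7A11, the cystine transporter that shares the heavy chain SLC3A2 with SLC7A5, fell from 19.0 ± 0.710 to 5.39 ± 0.995 FPKM (SD, n = 3 each; log2 fold change -1.82, standard error 0.16, limma adjusted p = 5.63e-06). Of 13 aminoacyl-tRNA synthetases, 2 rose (15.4%) and 4 fell (30.8%; median -0.15), and WARS1, the tryptophan enzyme, which is also known as an interferon-induced gene, rose from 81.7 ± 4.65 to 198 ± 8.42 FPKM (SD, n = 3 each; log2 fold change 1.28).

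**Figure D4:**
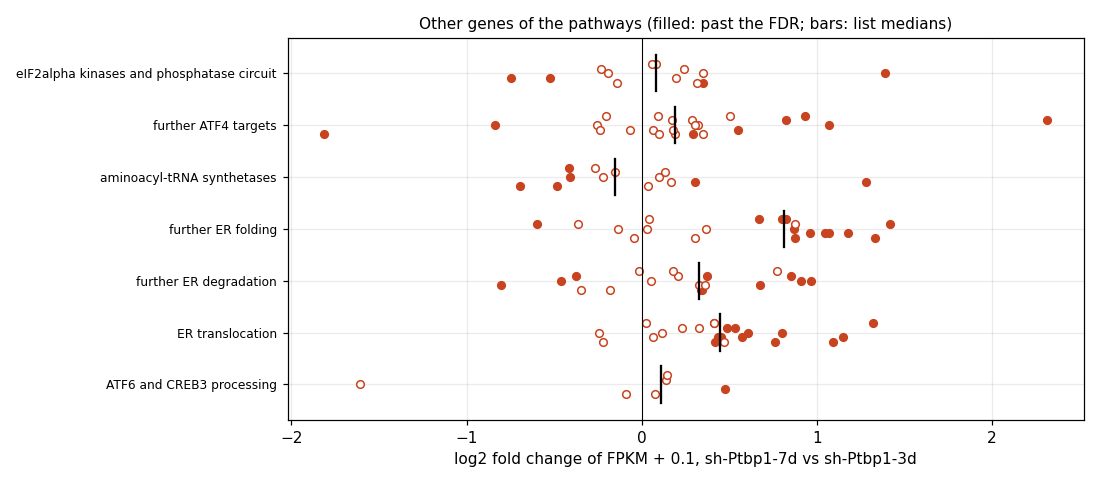
log2 fold change from sh-Ptbp1-3d to sh-Ptbp1-7d of the tested genes of 7 further lists, with 1 point per gene, filled where past the adjusted p threshold, and a bar at each list median. The medians of ER folding (0.81) and ER translocation (0.44) lie to the right of the others, and the ATF4 target list spans from SLC7A11 at -1.82 to GDF15 at 2.32.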

How the data were processed

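RNA-seq was done on U251 cells, with 3 libraries in each of 3 groups. The authors deposited FPKM per gene and library, which include 2363 assembled loci without a symbol, and a table of the positions of those loci. The positions are values of another kind and were used only to look for overlap with the 39 genes (0 found). The submitters' processing notes name HISAT2 and GRCh38, and the counting program is not given in the sources used here. FPKM scales by length and by library total, so a few very abundant genes can shift all others, and the depth is unknown.

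From these values, log2(FPKM + 0.1) was computed, and limma 3.58.1 (R 4.3.3) was run with 9 libraries in one model of 3 groups, an intensity trend and Benjamini-Hochberg adjustment over 15551 entries. A fold change on this scale understates that of low genes. The adjusted p thresholds are those of the study, whose fold change above 2 is used here as a second, stricter rule. For sh-Ptbp1-7d relative to sh-Luci-3d, where it states none, that from 3 dpi to 7 dpi was taken. With 3 against 3, an exact permutation test of 1 gene cannot go below p = 0.1. Promoters came from RefSeq, and figures from matplotlib 3.10.9 in Python 3.11.15.

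The members, the arms and the lists were chosen with earlier results of these data known, and numbers adjusted over the lists alone were not computed. All 39 genes are named. Values per library are given for genes past the adjusted p and a fold change of 2 in any comparison and for ATF4, DDIT3, ATF6, XBP1, ERN1 and HSPA5, and CANX was added after its values were seen. Of the 7 further lists, genes past both from 3 dpi to 7 dpi of the knockdown are named. The 20 alternatives were pseudocounts, filters, scalings (TPM, median ratio, quantile), omission of mitochondrial genes and assembled loci, fitting 2 groups alone, no trend, a replicate block and omission of each library.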

Additional observations from a re-analysis of the deposited data

How the results depend on the processing

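No called gene of the 39 changed its direction under any of the 20 alternatives. From sh-Ptbp1-3d to sh-Ptbp1-7d, 12 of 15 called genes of the integrated stress response arm and 14 of 15 of the ER arm were called in all of them, with 12 to 17 and 14 to 17 genes called. Against sh-Luci-3d these were 10 of 12 and 14 of 16, with 11 to 13 and 14 to 16 called. In the former comparison the median log2 fold change of all genes, 0.092 (3152 higher, 2418 lower), became 0.20 with TPM (3844 and 2010), 0.010 with median-ratio scaling (2689 and 2897) and -0.0087 with quantile normalization (2674 and 2903). Between the 3 dpi groups, the count of 5 among all genes became 0 in the fit of 2 groups alone and under the replicate block, 11 without a filter, and 3 without the trend and under quantile normalization. Omitting a library gave 1 to 993, and 0 to 4 and 0 to 1 in the arms, with the highest counts without sh-Luci-3d replicate 3, and the cause was not tested. The sources used here do not state whether same-numbered libraries were paired. Deviations from the group means correlated at -0.032 to 0.051 between same-numbered libraries and at -0.073 to 0.061 between differently numbered ones. These correlations do not settle whether the libraries were paired. The replicate block gave 14 and 15 calls in the arms from 3 dpi to 7 dpi, where SHMT2 was lost, and 11 and 16 against sh-Luci-3d, where DDIT4 and SDF2L1 were lost and DNAJC3 was gained.

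Reversed signs were found in uncalled genes alone, and the cause was not tested. Under median-ratio scaling and quantile normalization, log2 fold changes became -0.085 and -0.094 for ATF6 (7 dpi against sh-Ptbp1-3d), and against sh-Luci-3d -0.074 and -0.042 for EDEM1, -0.019 and -0.020 for SEL1L and -0.011 and -0.11 for STC2, and at 3 dpi -0.0073 and -0.023 for HERPUD1, which was -0.016 with TPM. Quantile normalization also gave 0.18 for CANX and -0.023 for STC2 (7 dpi against sh-Ptbp1-3d). Omitting a library at 3 dpi gave -0.030 to 0.16 for ATF4, -0.29 to 0.014 for ATF6, -0.072 to 0.055 for CALR, -0.16 to 0.011 for CHAC1, -0.13 to 0.15 for CRELD2, -0.11 to 0.087 for DDIT3, -0.041 to 0.074 for HERPUD1, -0.052 to 0.084 for HYOU1, -0.17 to 0.069 for MANF, -0.080 to 0.017 for PDIA3, -0.15 to 0.055 for SEL1L, -0.19 to 0.083 for STC2, -0.0061 to 0.13 for TRIB3 and -0.10 to 0.053 for XBP1. It gave -0.29 to 0.015 for ATF6, -0.045 to 0.14 for EDEM1, -0.058 to 0.18 for SEL1L and -0.053 to 0.27 for STC2 at 7 dpi relative to sh-Luci-3d, and -0.040 to 0.055 for ATF6 against sh-Ptbp1-3d.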
